A study of Mus musculus with 6 samples.

Results

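The 8 genes described here, Srebf2, Insig1, Hmgcs1, Idi1, Fdps, Fdft1, Sqle and Lss, belong to the cholesterol synthesis pathway and its control by the transcription factor SREBP2. They were taken by gene name from a deposited table of 28752 genes, and all 8 passed the filter on low counts that left 18348 genes for testing. RNA sequencing covered 6 samples of intestinal crypt stem cells, 3 with the vector (genotype labelled WT) and 3 overexpressing the circular RNA circEZH2_005, and the 6 were exposed to hypoxia/reoxygenation (H/R). Lgr5+ intestinal stem cells (ISCs) came from Lgr5-GFP reporter mice, in which green fluorescent protein marks these cells, and grew into crypt-villus organoids in IntestiCult medium. An adenovirus delivered circEZH2_005. The labels give 72 h of infection and then 4 h at 37 °C under 2% O2, 5% CO2 and 93% N2, and neither the age of the mice nor the length of reoxygenation. No sample without H/R and no uninfected sample was analysed here, so each difference is one between organoids with circEZH2_005 and organoids with the vector, both after H/R. The labels do not say whether the samples numbered 1 to 3 came from separate mice or cultures, so the p-values measure the spread between these samples, which may be technical. The circular RNA itself was not analysed here, because no row could be matched to it by identifier and its host gene Ezh2 does not stand for it. Total counts ran from 71506487 to 79919893 per sample, and a member's count in a sample from 2871 to 21843, so that counting error was smaller than the spread of a member between samples.

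The samples also differed in markers of cell types. Summed leukocyte markers (14 genes, none at 0 in any sample) lay at 716 to 1022 CPM (counts relative to the scaled size of the library) in vector samples and at 1832 to 2286 CPM in circEZH2_005 samples, and 1 of 14, Cd74, was significantly higher, which here means an adjusted p under 0.05 in edgeR. Of the epithelial markers 2 of 7 (Krt8 and Krt20) were also significantly higher, and of the enterocyte markers 1 of 9 (Apoa4). Log2 fold changes were above 0 for 7 of 7 epithelial and 6 of 9 enterocyte markers. The summed enterocyte markers lay at 15142 to 17513 CPM against 15271 to 29102 CPM. Of the goblet markers 1 of 7 was significantly higher, and 5 of 7 had log2 fold changes above 0. Of the Paneth markers 0 of 6 were significantly different and 0 of 6 above 0, with a median log2 fold change of -0.59. Lgr5, the marker the cells were isolated by, was detected in all 6 samples. Of the 8 stem cell markers, 2 were significantly lower in circEZH2_005 samples, Lgr5 and Smoc2, and 0 higher. Their log2 fold changes were above 0 for 2 of 8 (Axin2 at 0.31 and Rnf43 at 0.32), and their sums overlapped, at 1744 to 2640 CPM in vector samples and 1244 to 1843 CPM in circEZH2_005 samples. For Lgr5 itself the groups did not overlap, with 16.1, 12.1 and 18.3 CPM of Lgr5 in vector samples 1, 2 and 3 and 8.55, 9.10 and 7.70 CPM in circEZH2_005 samples 1, 2 and 3. The 9 cell division markers summed to 1511 to 1727 CPM in vector samples and 1425 to 1855 CPM in circEZH2_005 samples. Fibroblast, muscle and endothelial markers summed to at most 14.7 CPM in a sample, and 1 of 9, the endothelial and leukocyte gene Pecam1, was significantly higher. By the same rule 2.69% of all genes tested were higher and 0.986% lower in circEZH2_005 samples.

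Cholesterol is built from acetyl-CoA through HMG-CoA, mevalonate and isoprenoid units, which are joined to squalene and then closed to the first sterol, lanosterol. SREBP2, the product of Srebf2, is made as a precursor in the endoplasmic reticulum, where SCAP and the INSIG proteins hold it while sterols are plentiful. When sterols fall, it is carried to the Golgi and cleaved, and its released part enters the nucleus and raises transcription of the synthesis enzymes and of Srebf2 and Insig1 themselves. In the intestinal epithelium cholesterol is both made and absorbed.

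The promoter windows of the members are shown first. RefSeq windows on GRCm38.p6, 250 bases before to 50 bases after each start, were held for 5 of the 8 members (Srebf2, Hmgcs1, Insig1, Idi1 and Lss), and Sqle, Fdps and Fdft1 are only named. The motifs searched, on both strands, were the sterol element TCACNCCAC, its shorter form TCACNCCA that lies within it, the E-box CACGTG and the CCAAT box CCAAT. In the stretches printed here the sterol element or E-box and any CCAAT box (ATTGG on the other strand) are in capitals, with each stretch 5′ to 3′ on the plus strand, Srebf2 from chr15:82147057-82147164, Hmgcs1 from chr13:119690164-119690272 and Insig1 from chr5:28071261-28071362.
Srebf2: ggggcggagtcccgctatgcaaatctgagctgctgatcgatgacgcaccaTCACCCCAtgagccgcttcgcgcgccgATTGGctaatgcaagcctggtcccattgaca
Hmgcs1: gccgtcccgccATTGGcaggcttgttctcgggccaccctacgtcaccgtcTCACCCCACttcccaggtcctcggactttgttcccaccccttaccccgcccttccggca
Insig1: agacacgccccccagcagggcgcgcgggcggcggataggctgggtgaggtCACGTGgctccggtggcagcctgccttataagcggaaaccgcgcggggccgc
Distances are from the RefSeq start, which for Srebf2, Hmgcs1 and Insig1 differs from the gene start given below. TCACNCCAC was present in Hmgcs1, beginning 137 bases upstream of the RefSeq start, and in 1.24% of all 32851 windows. The shorter TCACNCCA was present in Hmgcs1 and, 162 bases upstream, in Srebf2, and in 4.36% of all windows. CACGTG was present in Insig1, 101 bases upstream, and in 7.15% of all windows. CCAAT was present in each of the 5 member windows and in 37.4% of all windows. A match says only that these letters are in the window, and its absence only that they are not.

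Between circEZH2_005 and vector samples, none of the 8 members was significantly different. The fitted log2 fold changes ran from -0.25 (Idi1) to 0.24 (Sqle), 5 members were above 0 and 3 below, and the adjusted p-values of edgeR's quasi-likelihood test (Benjamini-Hochberg over all 18348 genes) ran from 0.176 to 0.911. Across all genes the same test called 3.67%, with 2.69% higher and 0.986% lower in circEZH2_005 samples. At an unadjusted p under 0.05 the test passed 2 of 8 members, Srebf2 and Idi1, beside 23.7% of all genes, and DESeq2 passed 0 of 8 at an adjusted p under 0.05. By the rule of a fold over 2 or under 0.5 with an unadjusted p under 0.05 there were 0 of 8 members and 7.56% of all genes. Among the 95% intervals of this fit, the furthest bounds of any member were a fold of 1.49 upwards (Sqle) and of 0.673 downwards (Insig1). Each interval covers 1 gene at a time in the fit to all 6 samples. Without vector sample 3 the log2 fold change of Sqle was 0.35 (SE 0.15). In bulk samples, fewer cells of a type and less RNA per cell cannot be told apart. The values are normalized CPM scaled by TMM, a scaling that sets most genes level between samples.

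**Figure D1:**
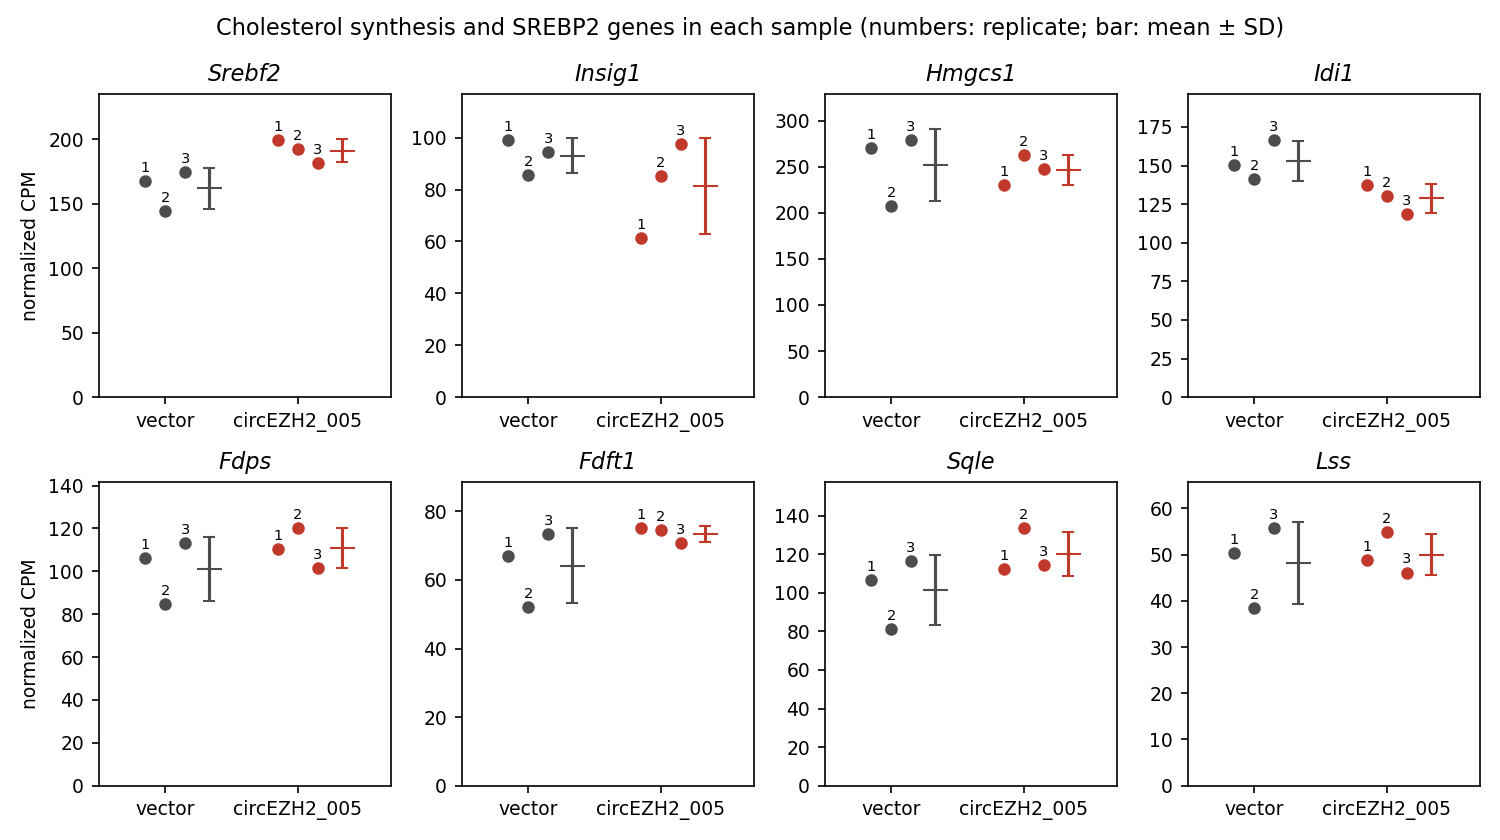
Normalized CPM (vertical axis, from 0) of the 8 members in each sample, with vector samples in grey and circEZH2_005 samples in red. Points are samples, labelled by replicate number, and bars are the mean ± SD of 3 samples. The groups do not overlap for Srebf2 and Idi1 and overlap for the other 6, and vector sample 2 is the lowest vector sample in each panel.

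Srebf2 encodes SREBP2 itself (chromosome 15, 82147181 to 82205379, plus strand, GRCm38). It was at 168, 144 and 174 CPM in vector samples 1, 2 and 3 and at 199, 193 and 181 CPM in circEZH2_005 samples 1, 2 and 3. The lowest circEZH2_005 sample lay above the highest vector sample, so the groups did not overlap. The means were 162 ± 15.9 and 191 ± 9.21 CPM (SD, n = 3 each), and the fitted log2 difference was 0.24 (SE 0.0967, 95% interval 0.01 to 0.46) with an edgeR adjusted p of 0.188. Without vector sample 2 the value was 0.16. The gene spans Mir33 and Gm49502 on its own strand, and how their reads were counted is not given in the sources used here. Groups without overlap were found in 2 of 8 members, Srebf2 and Idi1, and in 30.6% of all genes.

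Insig1 encodes a sterol-sensing anchor that keeps SCAP and SREBP2 in the endoplasmic reticulum (chromosome 5, 28071363 to 28078662, plus strand). Its values were 99.2, 85.8 and 94.3 CPM in vector samples 1, 2 and 3 and 61.4, 85.2 and 97.7 CPM in circEZH2_005 samples 1, 2 and 3. A single library, circEZH2_005 sample 1, was low, while circEZH2_005 sample 3 was above 2 of the vector samples. The SD was 18.4 CPM in the circEZH2_005 samples against 6.77 CPM in the vector samples, and the log2 fold change was -0.19 (SE 0.16) with an adjusted p of 0.527. It was -0.03 without circEZH2_005 sample 1 and -0.35 without circEZH2_005 sample 3.

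Of the enzymes that lead to the isoprenoid units, Hmgcs1 makes HMG-CoA (chromosome 13, 119690379 to 119708260, plus strand). It was at 270, 207 and 279 CPM in the vector samples and at 230, 262 and 248 CPM in the circEZH2_005 samples, in the order of their numbers. The circEZH2_005 values lay inside the range of the vector values, and the log2 fold change was -0.03 (95% interval -0.33 to 0.26). Without vector sample 2 the fitted value was -0.15.

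Idi1 interconverts the isoprenoid units isopentenyl and dimethylallyl diphosphate (chromosome 13, 8885501 to 8892451, plus strand). It was at 150, 141 and 167 CPM in vector samples 1, 2 and 3 and at 137, 130 and 119 CPM in circEZH2_005 samples 1, 2 and 3. The highest circEZH2_005 sample lay just under the lowest vector sample, so the groups did not overlap, in the opposite direction to Srebf2. The log2 fold change was -0.25 (SE 0.0966, 95% interval -0.47 to -0.02) with an edgeR adjusted p of 0.176, and -0.30 without vector sample 2. Two-sided exact permutation tests gave p = 0.1 for Srebf2 and for Idi1, which is the smallest p that 3 samples against 3 allow.

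Fdps joins isoprenoid units to farnesyl diphosphate, where the sterol branch parts from protein prenylation, dolichol and ubiquinone (chromosome 3, 89093588 to 89101959, minus strand). It was at 106, 84.5 and 113 CPM in vector samples 1, 2 and 3 and at 111, 120 and 101 CPM in circEZH2_005 samples 1, 2 and 3. The groups overlapped, and the log2 fold change of 0.13 (SE 0.12) was 0.01 without vector sample 2.

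Fdft1 (squalene synthase) commits farnesyl diphosphate to sterols (chromosome 14, 63145150 to 63179578, minus strand). Its values were 66.9, 52.0 and 73.5 CPM in vector samples 1, 2 and 3 and 75.0, 74.5 and 70.8 CPM in circEZH2_005 samples 1, 2 and 3. The circEZH2_005 samples stood close together (SD 2.29 CPM, against 11.0 CPM in the vector samples), and vector sample 3 lay among them. The log2 fold change was 0.20 (SE 0.13), and 0.07 without vector sample 2.

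Sqle (squalene epoxidase), a rate-limiting enzyme of the pathway, oxidizes squalene (chromosome 15, 59315077 to 59331192, plus strand). It was at 107, 81.4 and 116 CPM in vector samples 1, 2 and 3 and at 112, 133 and 114 CPM in circEZH2_005 samples 1, 2 and 3. Vector sample 2 was low and circEZH2_005 sample 2 high, with the other 4 samples between 107 and 116 CPM. The log2 fold change of 0.24 (SE 0.14, adjusted p = 0.353) became 0.11 without vector sample 2.

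Lss (lanosterol synthase) closes the sterol ring system (chromosome 10, 76531588 to 76557138, plus strand). It was at 50.3, 38.4 and 55.7 CPM in vector samples 1, 2 and 3 and at 48.9, 54.9 and 46.1 CPM in circEZH2_005 samples 1, 2 and 3. All 3 circEZH2_005 values lay inside the vector range. The log2 fold change was 0.05 (95% interval -0.28 to 0.38), and -0.08 without vector sample 2. Hmgcs1, Idi1, Fdft1 and Lss each overlap a gene on the other strand (for Fdft1 the protease gene Ctsb) and Fdps overlaps Gm43738 and Gm22935 on its own, and whether counting used the strand is not given in the sources used here.

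**Figure D2:**
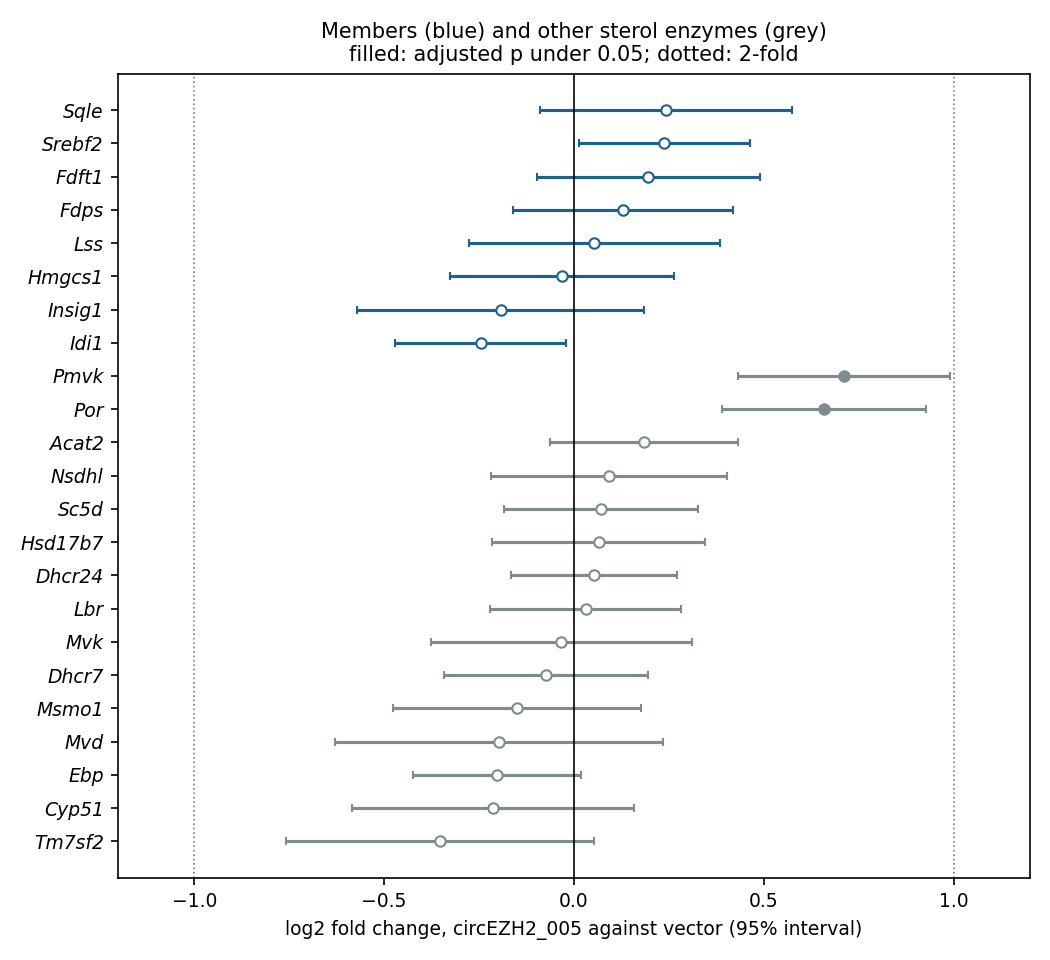
Log2 fold change of circEZH2_005 against vector (horizontal axis) with its 95% interval from edgeR, for the 8 members (blue) and the other enzymes of sterol synthesis reported here (grey). Filled points have an adjusted p under 0.05 and dotted lines mark 2-fold; Pmvk (0.71) and Por (0.66) are filled, and no member is.

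Vector sample 2 was low across the members. It was the lowest of the 3 vector samples in 8 of 8 members, against 38% of all genes tested, and the lowest of all 6 samples in 6 of 8, against 18.1% of all genes. The exceptions were Insig1, lowest in circEZH2_005 sample 1, and Idi1, lowest in circEZH2_005 sample 3. Relative to the mean of vector samples 1 and 3, vector sample 2 held from 72.5% (Lss) to 89.1% (Idi1) of a member's CPM. With each member set to 100% at its own mean over 6 samples, the median member was at 101%, 80.7% and 107% in vector samples 1, 2 and 3 and at 101%, 109% and 101% in circEZH2_005 samples 1, 2 and 3. The median log2 fold change of the members was 0.09, beside 0.00 for all genes tested, and -0.04 without vector sample 2.

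Vector sample 2 stood apart in other measures as well. In log2 CPM over all genes tested, vector samples 1 and 3 had a Pearson correlation of 0.979. Vector sample 2 correlated at 0.970 with each of them, and at 0.969, 0.965 and 0.971 with circEZH2_005 samples 1, 2 and 3. Its summed leukocyte markers were 1022 CPM against 725 and 716 CPM in vector samples 1 and 3. The stem cell marker Olfm4 was at 2314 CPM against 1447 and 1511 CPM, while Lgr5 (12.1 against 16.1 and 18.3 CPM) and Smoc2 (88.9 against 112 and 113 CPM) were lowest in vector sample 2 among the vector samples. The part of these differences in the members' values was not tested. The pattern extended past the members, since vector sample 2 was the lowest vector sample in 15 of 16 other sterol enzymes (all but Lbr) and the lowest of all 6 samples in 12 of 16. It held 61.3% of the mean of vector samples 1 and 3 for Mvd, which makes isopentenyl diphosphate, and 67.7% for Cyp51, which demethylates lanosterol. In the non-sterol isoprenoid branch it was the lowest vector sample in 2 of 10 genes. The same was so for 9 of 13 SREBP2 processing, 7 of 12 uptake and transport, 6 of 11 storage and efflux and 9 of 16 fatty acid genes. Among markers these were 6 of 6 Paneth, 6 of 7 goblet, 6 of 7 epithelial, 4 of 7 enteroendocrine and 2 of 4 tuft genes. Fewer were found among stem cell (2 of 8), enterocyte (2 of 9), leukocyte (2 of 14), fibroblast, muscle and endothelial (3 of 9) and cell division markers (0 of 9).

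**Figure D3:**
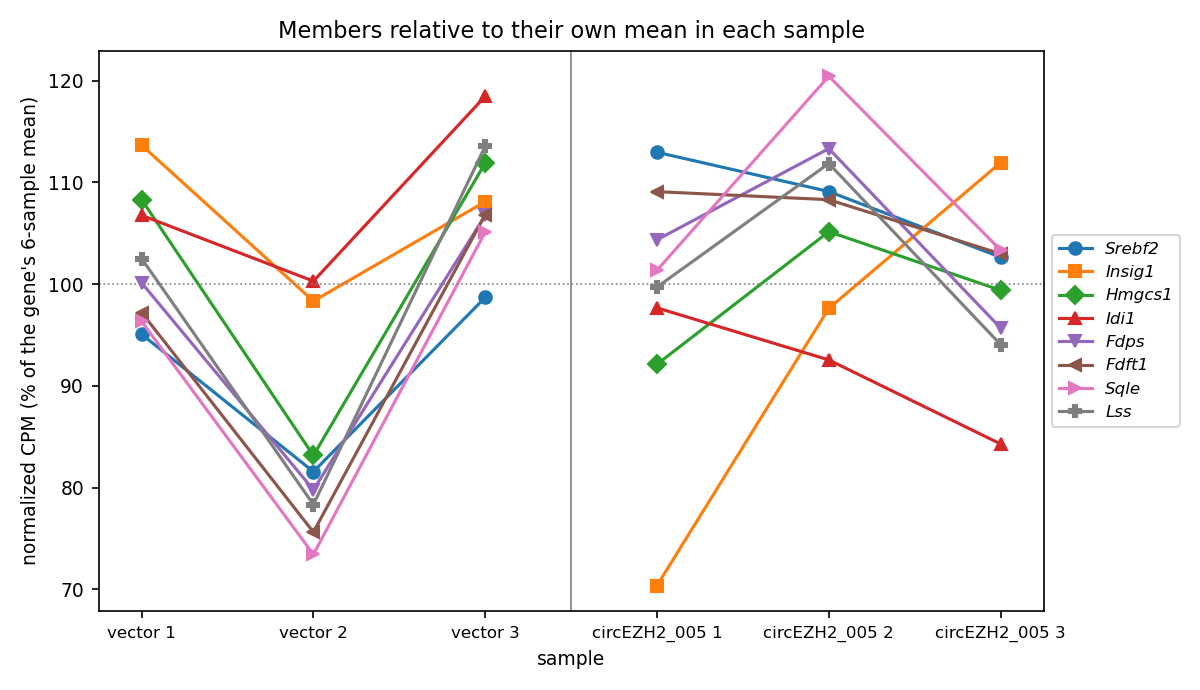
Normalized CPM of each member as a percentage of its own mean over the 6 samples (vertical axis), by sample (horizontal axis). Lines only join the points of a gene; vector sample 2 is the lowest sample for 6 of 8 members, Insig1 is low in circEZH2_005 sample 1 (70.4%), and Idi1 runs below its mean in the 3 circEZH2_005 samples.

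Ratios of counts within a library do not depend on scaling, and they separated some members from others. Idi1 counts per Srebf2 count were 0.895, 0.979 and 0.956 in vector samples 1, 2 and 3 and 0.689, 0.676 and 0.654 in circEZH2_005 samples 1, 2 and 3. The gap between the groups was wider than the spread within either, and vector sample 2 did not stand below the other vector samples. Insig1 per Srebf2 was 0.591, 0.596 and 0.541 in the vector samples and 0.308, 0.442 and 0.539 in the circEZH2_005 samples, where the third circEZH2_005 sample nearly reached the vector range. Hmgcs1 per Srebf2 was 1.61, 1.44 and 1.60 against 1.15, 1.36 and 1.37. For the last steps, Lss per Sqle was 0.471, 0.472 and 0.478 in the vector samples and 0.436, 0.411 and 0.403 in the circEZH2_005 samples, so the groups did not overlap although the difference was small. Fdft1 per Srebf2 overlapped between the groups, with means of 0.394 ± 0.0305 and 0.385 ± 0.00754 (SD, n = 3 each). These pairs were chosen after the values were seen and carry no test, and the ratios with Srebf2 share its counts.

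Levels between genes were compared per length, in FPKM as deposited. In the vector samples Hmgcs1 was highest at 50.7 ± 7.43 FPKM (SD, n = 3), followed by Idi1 at 40.3 ± 3.35, Insig1 at 27.8 ± 1.66 and Fdps at 22.2 ± 3.12 FPKM. Srebf2 at 20.9 ± 1.89, Sqle at 16.9 ± 2.91 and Fdft1 at 14.4 ± 2.38 FPKM came next, and Lss was lowest at 4.12 ± 0.73 FPKM. Neighbours whose samples overlapped in this order were Hmgcs1 and Idi1, Fdps and Srebf2, Srebf2 and Sqle, and Sqle and Fdft1. Hmgcs1 and Idi1, which act early in the pathway, stood above Fdft1, Sqle and Lss, which act late, and Lss was lowest in both groups. In the circEZH2_005 samples Hmgcs1 (46.7 ± 0.93 FPKM) and Idi1 (32.1 ± 4.04 FPKM) were again the highest. Srebf2 at 23.2 ± 2.36, Fdps at 22.9 ± 2.17 and Insig1 at 22.7 ± 4.14 FPKM then overlapped with their neighbours, Sqle was at 18.8 ± 1.28 and Fdft1 at 15.6 ± 1.26 FPKM, and Lss was at 4.03 ± 0.35 FPKM. Of these, Insig1 and Sqle also overlapped.

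Among the other enzymes of mevalonate and sterol synthesis, 2 of 16 tested were significantly higher and 0 lower, beside 2.69% and 0.986% of all genes. Their median log2 fold change was 0.04. Pmvk phosphorylates mevalonate phosphate, and was at 23.7, 20.5 and 23.8 CPM in vector samples 1, 2 and 3 and at 33.6, 42.6 and 34.9 CPM in circEZH2_005 samples 1, 2 and 3. Its groups were far apart for a fold of 1.64 (log2 0.71, SE 0.12, edgeR adjusted p = 0.0301). Por passes electrons to Cyp51, Sqle and many other cytochrome P450 and oxygenase enzymes, and was at 108, 91.5 and 102 CPM against 148, 182 and 145 CPM, a fold of 1.58 (log2 0.66, SE 0.12, adjusted p = 0.0325). Both calls were lost when vector sample 1 (adjusted p = 0.119 and 0.116), vector sample 3 (0.127 and 0.138), circEZH2_005 sample 2 (0.0915 and 0.0868) or circEZH2_005 sample 3 (0.0645 and 0.0609) was left out. Mvk, the kinase ahead of Pmvk, stood at a log2 fold change of -0.03 (95% interval -0.38 to 0.31), and Pmvk counts per Mvk count were 1.03, 1.11 and 0.929 in the vector samples and 1.62, 1.71 and 1.75 in the circEZH2_005 samples. The gene with the lowest value was Tm7sf2, a sterol reductase, at a log2 fold change of -0.35 (adjusted p = 0.274). Cyp51 stood at -0.21 and was not significant.

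Of 13 genes that process SREBP2 or sense sterols, edgeR called 0, beside 3.67% of all genes (median log2 fold change -0.00). At an unadjusted p under 0.05 there were 2 of 13, beside 23.7% of all genes, and DESeq2 called 1. That gene was Tmem97, a sterol-regulated endoplasmic reticulum protein, at 91.3, 84.0 and 104 CPM in vector samples 1, 2 and 3 and 72.2, 62.9 and 69.8 CPM in circEZH2_005 samples 1, 2 and 3. Its groups did not overlap, and its edgeR adjusted p was 0.0573 (DESeq2 adjusted p = 0.0068). Srebf1, the paralog that drives fatty acid synthesis, had the highest log2 fold change at 0.27 (adjusted p = 0.315), and Scap stood at 0.02. Srebf1 counts per Srebf2 count overlapped between the groups.

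Of 12 genes of LDL uptake and sterol transport, 4 were significantly higher and 0 lower in circEZH2_005 samples, beside 2.69% and 0.986% of all genes. The median log2 fold change was 0.71, and 3 of the 4 called genes are described here. Scarb1, a lipoprotein receptor, was at 8.74, 13.1 and 7.84 CPM in vector samples 1, 2 and 3 and at 23.0, 30.9 and 20.3 CPM in circEZH2_005 samples 1, 2 and 3 (fold 2.50, adjusted p = 0.0337). Gramd1b, which moves cholesterol from the plasma membrane to the endoplasmic reticulum, was at 31.7, 39.9 and 34.7 CPM against 58.2, 74.5 and 60.0 CPM (fold 1.81, adjusted p = 0.0226). Both genes were separated between groups, and vector sample 2 was their highest vector sample rather than the lowest. Npc1, the lysosomal cholesterol exporter, had a fold of 1.53 (adjusted p = 0.0332). The highest value was that of Mylip, a ubiquitin ligase with 23 to 96 counts in vector samples, at 1.76 (adjusted p = 0.099), and the lowest that of Lipa, lysosomal acid lipase, at -0.30 (adjusted p = 0.407). No gene of this list was called when vector sample 1, vector sample 3, circEZH2_005 sample 2 or circEZH2_005 sample 3 was left out. The summed leukocyte markers were higher in all 3 circEZH2_005 samples and the summed enterocyte markers in circEZH2_005 samples 2 and 3 only, and their part in these values was not tested.

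The list of sterol storage, oxidation and efflux is called the LXR arm here and includes the genes of the sterol-activated LXR receptors. Whether LXR governs each gene of the list was not tested. Of its 11 tested genes, 2 were significantly higher and 1 lower. Of all genes, 2.69% were higher and 0.986% lower. The list held 13 genes, with Ch25h and Cyp7b1 too low to test, and the median log2 fold change was 0.46. Abca1, which exports cholesterol to apolipoproteins, was at 6.97, 5.84 and 8.74 CPM in vector samples 1, 2 and 3 and at 18.9, 37.8 and 23.3 CPM in circEZH2_005 samples 1, 2 and 3. No circEZH2_005 sample came near the vector range (fold 3.71, 95% interval 2.38 to 5.79, edgeR adjusted p = 0.0215). Abcg1, a partner exporter, was at 0.57, 1.12 and 1.03 CPM against 3.70, 3.41 and 2.25 CPM (fold 3.43, adjusted p = 0.0393). It had only 41, 84 and 81 counts in vector samples 1, 2 and 3, and was called in 4 of the 11 alternative settings that tested it. Soat1, which esterifies cholesterol for storage, moved the other way, from 54.8, 52.3 and 56.3 CPM to 35.2, 27.9 and 33.2 CPM (fold 0.589, adjusted p = 0.0185). The 3 calls were lost without vector sample 1 (adjusted p 0.0969 to 0.126), vector sample 3 (0.0943 to 0.138) or circEZH2_005 sample 3 (0.052 to 0.0596), and without circEZH2_005 sample 2 only Soat1 was called (0.045). Abcg1 was also lost without circEZH2_005 sample 1 (0.0693). Abca1 and Abcg1 are expressed in leukocytes too, and the part of the leukocyte marker sums in their values was not tested.

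**Figure D4:**
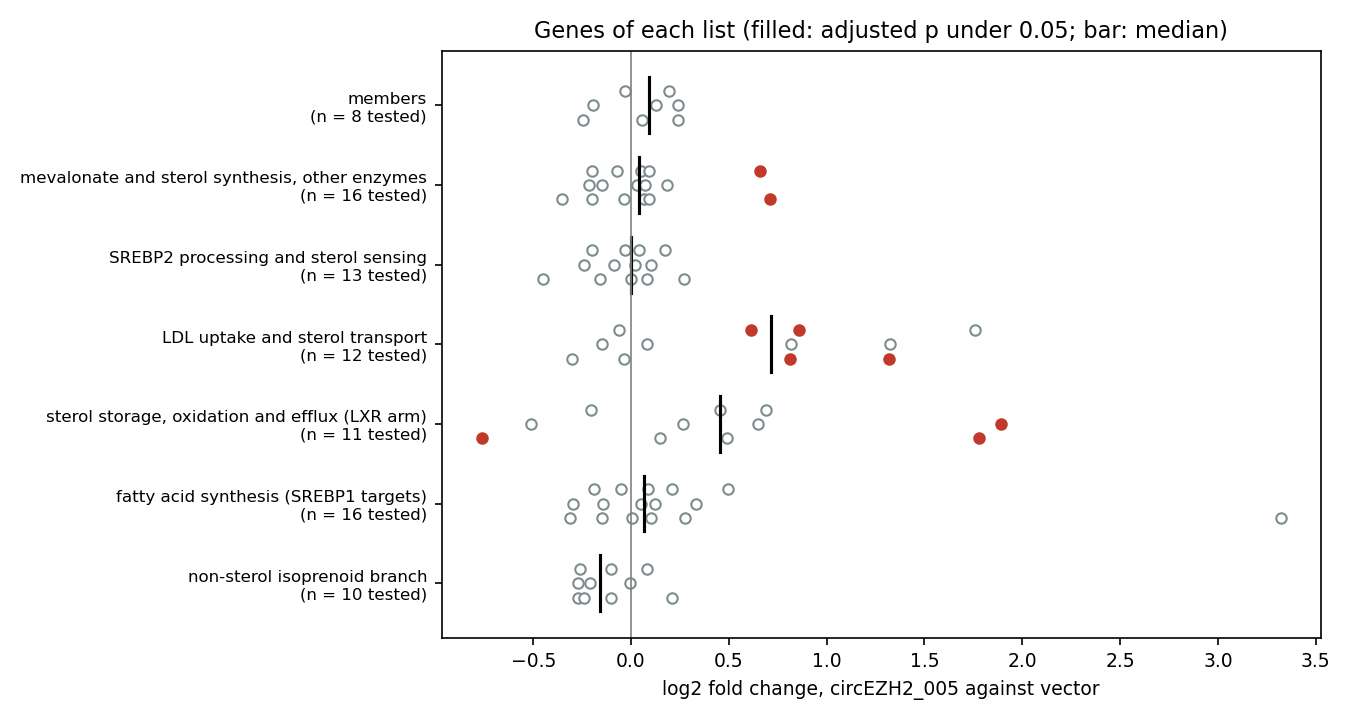
Log2 fold change of circEZH2_005 against vector (horizontal axis) for the members and 6 other gene lists, with 1 point per tested gene and a vertical bar at each median. Filled points have an edgeR adjusted p under 0.05; the members lie between -0.25 and 0.24 with none filled, and filled points lie among the other sterol enzymes (2), uptake and transport (4) and the LXR arm (3).

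Fatty acid synthesis, which SREBP1 mainly drives, and the non-sterol isoprenoid branch that leaves the pathway at farnesyl diphosphate gave no call. EdgeR called 0 of 16 fatty acid genes, beside 3.67% of all genes, and DESeq2 called 0. At an unadjusted p under 0.05 there were 3 of 16, beside 23.7% of all genes, and the median log2 fold change was 0.07. The lowest was Me1, which supplies NADPH, at -0.31, and the highest was Thrsp, which had only 0, 5 and 4 counts in vector samples 1, 2 and 3 and 43, 12 and 38 counts in circEZH2_005 samples 1, 2 and 3. In the isoprenoid branch edgeR and DESeq2 each called 0 of 10, and the median was -0.16. At an unadjusted p under 0.05 there were 4 of 10, beside the same 23.7% of all genes. Fnta, a prenyltransferase subunit, was lowest at -0.27 (adjusted p = 0.107), and Ggps1, which makes geranylgeranyl diphosphate, highest at 0.21 (adjusted p = 0.31).

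Genes whose values followed those of the members over the 6 samples were found by the Pearson correlation of log2 CPM with the mean of the members' standardized log2 CPM, among 9255 genes of at least 10 CPM on average. The 5 most alike were Hdlbp (r = 0.989), Vcl (0.987), Trim16 (0.987), Dpp3 (0.982) and Suox (0.980), and the 5 least alike were Aurkaip1 (-0.989), Mrpl49 (-0.982), Gm10232 (-0.980), Ten1 (-0.980) and Gm7964 (-0.978). With 6 samples drawn from the same libraries, and vector sample 2 low in most members, these r values are descriptions only. Within the members, each gene was set against the mean of the other members, itself left out. Lss (r = 0.982), Fdps (0.920), Hmgcs1 (0.893), Sqle (0.867) and Fdft1 (0.842) followed that mean, Srebf2 did so less (0.587), and Idi1 (0.061) and Insig1 (-0.020) did not. The 16 other sterol enzymes ran from rank 51 of the 9255 genes (Hsd17b7, r = 0.931) to rank 7881 (Lbr, r = -0.54), with Pmvk at rank 1872, Por at rank 1958 and Ebp at rank 3737.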

How the data were processed

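RNA was measured in 6 samples, from oligo(dT) libraries. The authors deposited, for each gene and sample, a read count without normalization and an FPKM value. Per the labels' processing notes, cutadapt 1.9, HISAT2 2.0.4, StringTie 1.3.4d, DESeq2 and mm10 were used; their roles, the counter and the strand setting are not given in the sources used here. Columns named as a negative control were matched to the vector samples, the only control group, and the number of sample columns not used was 0. The members and lists were chosen with earlier results of these data known. Counts were filtered with filterByExpr, scaled with TMM and compared with edgeR 4.0.16 (quasi-likelihood test, R 4.3.3), 3 samples against 3, without covariates, with Benjamini-Hochberg adjustment over all genes tested. Called genes had an adjusted p under 0.05. Standard errors are the fold change over the square root of F, and intervals are 95%. Alternatives were another scaling (RLE), library size only, no filter, DESeq2 1.42.0, limma 3.58.1 on log2(FPKM + 1) and log2(FPKM + 0.1) for genes of at least 0.5 FPKM on average, the replicate number as a block, and each sample left out. Scripts were tested on simulated counts in which 200 genes were changed. There edgeR found 8.96% of the genes changed by a log2 of 0.5 and 40.3% of those changed by 1. False calls were 4.88% of all calls by edgeR and 25.6% of those by DESeq2. These shares hold for the simulated counts only. Named genes were the members and, in each list, the called genes (at most 6) and the highest and lowest fold changes, plus the 5 most and least alike; count ratios, marker genes and a few others named beside them, such as Cyp51, were chosen after their values were seen. Some genes of the lists are counted but not reported here by name. Positions were compared with GENCODE M21 on GRCm38: 28678 of 28752 identifiers were found, and the 8 members had the same start and end.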

Additional observations from a re-analysis of the deposited data

How the results depend on the processing

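No member was called under any of the 13 alternatives or by the fold rule, and computing TPM from the FPKM moved the members' levels by less than the spread between samples. Without a call, 2 members changed sign in some settings. Hmgcs1 (-0.03) ranged from -0.15 to 0.043 with a sample left out and was above 0 without vector sample 1 (0.02), vector sample 3 or circEZH2_005 sample 1 (0.02). Lss (0.05) was at -0.0092 with library size only, -0.019 and -0.021 with limma at pseudocounts of 1 and 0.1, and from -0.084 to 0.17 with a sample left out, below 0 without vector sample 2 or circEZH2_005 sample 2 (-0.02). Library size only shifted the median log2 fold change of all genes by -0.06. The count over all genes, 674, was 169 without the filter, 2289 by DESeq2, 289 by limma with a pseudocount of 0.1, 1388 by the fold rule, and 28 to 1432 with a sample left out (28 without vector sample 1, 33 without vector sample 3, 68 without circEZH2_005 sample 2, 169 without circEZH2_005 sample 3, and 1432 without vector sample 2). The other sterol enzymes had 0 calls without the filter and by limma with a pseudocount of 0.1, and 0 to 2 with a sample left out. SREBP2 processing had 1 call by DESeq2 and 0 to 1 with a sample left out (1 without vector sample 2). Uptake and transport had 1 call without the filter, 7 by DESeq2, 2 by limma with a pseudocount of 1, 0 with 0.1, and 0 to 5 with a sample left out. The LXR arm had 5 calls by DESeq2 and 0 to 3 with a sample left out. The causes were not tested.

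The labels number the replicates alike in both groups, and deviations of same-numbered samples over all genes correlated at -0.14, -0.02 and 0.04. Such values show no common deviation, but they cannot tell whether equal numbers share a mouse, culture or preparation. With the replicate number as a block, 277 genes were called, among them 0 members, 0 of the other sterol enzymes (Pmvk at an adjusted p of 0.0755, Por at 0.0798), 2 in uptake and transport and 2 in the LXR arm, and 0 in the SREBP2 processing, fatty acid and isoprenoid lists.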
